A study of Canis lupus familiaris with 8 samples.

Results

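The cells compared here were the stem-like fraction sorted from CMT-Star, a doxorubicin-resistant canine mammary carcinoma line, and unsorted CMT-Star cells. The series holds 4 groups of 2 arrays, and this comparison used 4 of the 8 arrays, chosen by sample title: 2 of sorted cells (Star CSC) and 2 of unsorted cells (Star parent). CMT-Star came from the CMT-Stylo line through months of culture in rising doxorubicin, an anthracycline that poisons topoisomerase II, until it withstood 100 nM. Both Star groups therefore share the same line, the same drug selection and the same serum-containing medium, and the labels mark both as treated with doxorubicin, without saying whether the drug was present at harvest. Star CSC cells had been taken by flow cytometry as positive for CD44, with little or no CD24, and positive for aldehyde dehydrogenase (ALDH). The other 4 arrays held the same pair of groups from the drug-sensitive CMT-Stylo line. A single cell line stands behind both Star groups, and nothing in the labels says that arrays 1 and 2 of a group came from separate cultures or sorts, so p-values measure the spread between arrays, which may be technical.

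CD44 is a hyaluronan receptor, CD24 a small surface glycoprotein, and ALDH enzymes oxidise retinal and other aldehydes. In breast carcinoma, CD44-positive, CD24-low and ALDH-positive cells are known for seeding tumours at low cell numbers, and the 3 markers are widely used to enrich such cells. Interferon-induced genes, such as the OAS and MX families, encode antiviral proteins and are switched on by signalling from interferon receptors through STAT proteins. The same signalling raises MHC molecules and the immunoproteasome, which cuts proteins into the peptides that MHC class I displays.

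Total RNA was labelled with Cy3 and hybridised to a 1-colour Agilent canine design with 43603 gene probes. A level is the log2 signal of a probe relative to the 75th percentile of its array, so 0 is that percentile, and levels of different genes cannot be set against each other. Tests covered the 25939 probes with a signal well above background on the 2 Star CSC arrays, the 2 Star parent arrays or all 4. A probe was called if limma's adjusted p was below 0.05 and the change at least 2-fold. Changes are log2 Star CSC minus Star parent, given ± SE from limma, with n = 2 arrays a group throughout. A reference table of RefSeq accessions named only 2353 probes (5.4%), for 1458 symbols, of which 940 were tested. A gene stands for its tested probe of highest mean level. Fewer expressing cells and less RNA per cell cannot be told apart in these bulk samples.

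The 4 arrays were of similar quality and lay on 1 slide. The 75th-percentile signal was 540 and 469 on the Star CSC arrays and 374 and 333 on the Star parent arrays, with 57.6% to 60.7% of probes well above background. Replicates correlated at 0.984 (Star CSC) and 0.980 (Star parent), and arrays of different groups at 0.948 to 0.964. The parent arrays were in positions 1 and 2 of the slide and the CSC arrays in positions 3 and 4, so the sort and the position cannot be told apart. The spike-in RNA that Agilent adds in labelling was dimmer on the Star CSC arrays (log2 signal 10.40 and 10.20) than on the Star parent arrays (11.73 and 11.23), by 7 probes. Scaling to it in place of the 75th percentile would add 1.69 to every change between Star CSC and Star parent. A fall smaller than 1.69 then becomes a rise. Changes within the Stylo line would shift by another amount. All directions are therefore relative to the bulk of each array's probes.

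Sorted and unsorted resistant cells differed at a minority of probes, and more of those were lower than higher in the sorted cells. Star CSC was higher at 851 probes (3.28% of those tested) and lower at 1673 (6.45%), 9.73% in all. Among named genes, 52 were higher (5.53%) and 68 lower (7.23%), 12.8% in all. Most calls were modest: 632 of the higher and 1327 of the lower ones lay between 2-fold and 4-fold. Changes over 16-fold numbered 27 higher and 17 lower. The median change was -0.09, and the 5th and 95th percentiles were -1.32 and 0.96. The median gap between replicates was 0.11 in Star CSC and 0.18 in Star parent.

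**Figure D1:**
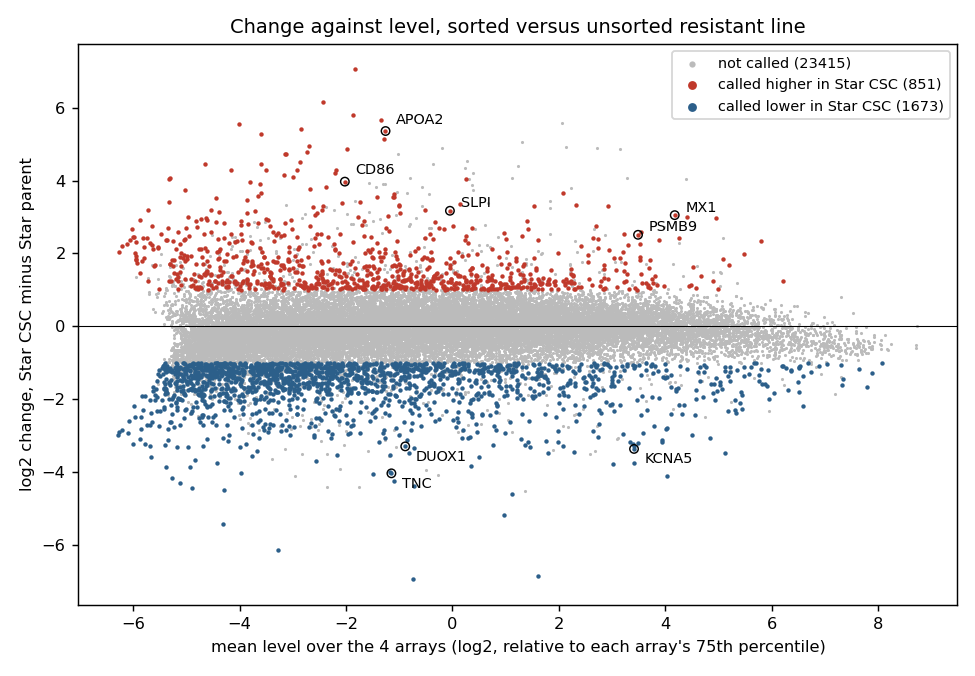
Change (log2 Star CSC minus Star parent) against the mean level over the 4 arrays (log2, relative to each array's 75th percentile) for the 25939 tested probes, with 851 called higher in red, 1673 called lower in blue and the rest in grey. Named genes are circled: APOA2 (5.36) was the largest named rise and TNC (-4.04) the largest named fall, and called rises reach across the range of levels, MX1 and PSMB9 on the bright side.

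The split between directions moved with the scaling. Of the calls, 33.7% were higher, against 46.2% with quantile normalization, 47.6% with cyclic loess, 59.7% with median scaling, 99.3% with spike-in scaling and 44.8% without Star parent replicate 2. The lower calls were concentrated among dim probes: in the dimmest of 3 equal classes of level 10.1% of probes were lower, against 5.36% in the middle and 3.86% in the brightest class. The shares of higher calls in those classes were 4.16%, 3.70% and 1.98%. The median change was -0.28, 0.00 and -0.03 in the same order.

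The interferon-induced genes were the list with the highest share of calls among those with at least 5 tested genes. Of 8 members on the array all were tested, 7 were higher in Star CSC and none was lower, with a median change of 1.91, against 5.53% higher and a median of -0.08 over all named genes. The median lay between 1.59 and 3.60 under every scaling tried. In all, 5 members were called higher under each of them. OASL and IFGGC1 entered the test only through their signal in Star CSC, which favours a higher call. With the test limited to probes well above background on all 4 arrays, 5 of 6 members were higher, with a median of 1.73. The same limit left 41 of 877 named genes higher.

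MX1, a GTPase that traps viral ribonucleoproteins, stood at 5.75 and 5.65 on the Star CSC arrays and at 2.65 and 2.66 on the Star parent arrays. The groups were far apart relative to their replicates, and the change was 3.05 ± 0.09, or 8.29-fold (limma adjusted p = 0.000115). A second MX1 probe gave 3.65. The 2'-5'-oligoadenylate synthetases make the messenger that activates RNase L, which degrades RNA. OAS1 stood at 4.19 and 4.25 in Star CSC and 2.06 and 2.31 in Star parent, a change of 2.03 ± 0.19 (adjusted p = 0.00171). OAS2 was at 6.0 and 6.07 against 4.22 and 4.47, a change of 1.69 ± 0.12. Both synthetases were higher on each CSC array than on either parent array, and second probes agreed in call (2.00 for OAS1 and 1.23 for OAS2).

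OAS3 was a dimmer member, at -2.85 and -2.77 in Star CSC and -4.28 on both Star parent arrays. Its change of 1.48 ± 0.10 shrank to 0.10, and was no longer called, with normexp background correction, an alternative that adds an offset to every signal and so compresses dim probes. OASL, the OAS-like protein that lacks synthetase activity, was at -1.33 and -1.41 in Star CSC and did not rise clearly above background in Star parent (-5.09 and -6.22), which makes it at least 12.7-fold higher. IFGGC1, an immunity-related GTPase by its name, was at -0.22 and -0.23 against -5.28 and -5.06, again within the background of Star parent, and was at least 28.4-fold higher. Such bounds set the CSC mean against the higher of the dim probe's own signal and the lowest well-above-background signal on each parent array. LOC606863, which the reference table lists with the synonym IRGM and which is not in the list, was at least 12.9-fold higher by the same measure. With normexp these 3 changes, measured at 4.29, 4.94 and 4.45, became 1.30, 2.32 and 1.45 and were still called.

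CXCL10, the chemokine that draws CXCR3-bearing T cells, was at -1.46 and -1.44 in Star CSC and -3.25 and -3.21 in Star parent. The change was 1.78 ± 0.09 (adjusted p = 0.00032). A second probe (1.16) was not called, and with normexp the first fell to 0.83 and lost its call. EIF2AK2, the double-stranded-RNA kinase that halts translation, was the member not called: it stood at -0.82 and -0.77 against -1.52 and -1.61, with a change of 0.77 ± 0.27 (adjusted p = 0.0771).

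Genes of antigen presentation leaned the same way but with fewer calls. Of 15 on the array 12 were tested, and 3 were higher and none lower, with a median of 0.71 (0.48 to 2.40 over the scalings). Calls covered 25% of this list and 12.8% of all named genes. Immunoproteasome subunits had the larger changes. PSMB9 was at 4.73 and 4.76 in Star CSC and 2.28 and 2.18 in Star parent, a change of 2.51 ± 0.11 (5.70-fold, adjusted p = 0.000271), and its second probe gave 2.54. PSMB8 was at -1.04 and -1.52 against -3.80 on both parent arrays, a change of 2.52 ± 0.39 that became 1.00 with normexp. These catalytic subunits replace their constitutive counterparts when interferon acts on a cell.

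MHC class I and its loading machinery changed less. TAP1 and TAP2, the subunits of the peptide pump of the endoplasmic reticulum, were at 0.70 ± 0.09 and 0.72 ± 0.15. Tapasin (TAPBP), which bridges the pump to class I, was at 0.69 ± 0.13, with a second probe called at 1.12. All 3 passed the adjusted p and missed the 2-fold limit. The class I heavy chains DLA88 and DLA-64 were at 0.38 ± 0.10 and 0.31 ± 0.10, although 1 of the other DLA-64 probes was called at 1.21. DLA-79 was at 0.66 ± 0.38. In each of these 6 genes both CSC arrays lay above both parent arrays, as they did at 30.5% of all tested probes.

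MHC class II, which presents taken-up protein to CD4 T cells, was called at its beta chains. HLA-DRB1, as the reference table names the canine DR beta gene, was at 1.12 and 1.09 in Star CSC and -1.62 and -1.59 in Star parent. The change was 2.71 ± 0.11 (6.54-fold, adjusted p = 0.000256), and the gene's other 2 tested probes were called at 3.18 and 1.68. It falls outside the fixed list and is named as 1 of the 12 largest rises. DLA-DQB1 was at -3.11 and -3.02 and at -5.34 on both Star parent arrays, within their background, which makes it at least 3.98-fold higher, but it was only 0.26 and uncalled with normexp. The peptide exchangers DLA-DMA (0.83 ± 0.15) and DLA-DMB (0.74 ± 0.36) were not called. The alpha chain DLA-DRA was near background at its main probe (0.58 ± 0.18, not called), while its second probe was called at 2.43.

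**Figure D2:**
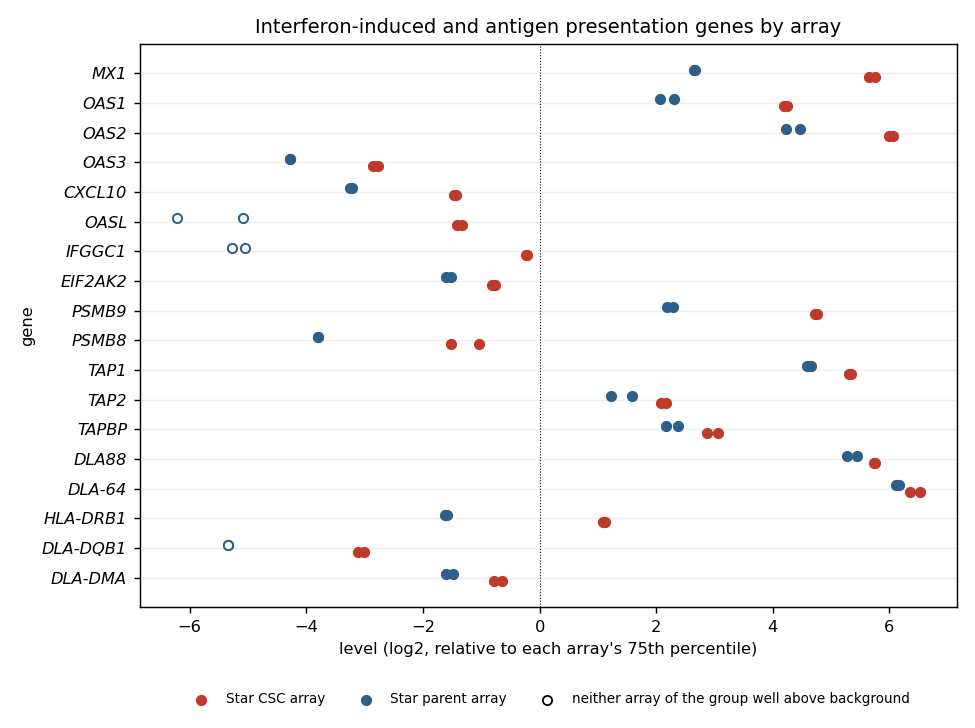
Level on each of the 2 Star CSC arrays (red) and 2 Star parent arrays (blue) for 8 interferon-induced genes (top) and 10 genes of antigen presentation, on the log2 scale relative to each array's 75th percentile. Open symbols mark a group in which neither array was well above background. For all 18 genes the red points lie to the right of the blue ones, with gaps that run from 0.31 (DLA-64) to 4.94 (IFGGC1). Both CSC arrays lay above both parent arrays at 30.5% of all tested probes. OASL, IFGGC1 and DLA-DQB1 entered the test only through their signal in Star CSC, which favours such a gap.

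Sets of interferon and class II genes are also expressed by leukocytes, so leukocyte markers were examined beside them. Of these markers 18 were on the array and 5 were tested. CD86, a co-stimulatory ligand of T cells carried by antigen-presenting cells, was the second largest rise among the named genes well above background on all 4 arrays. It stood at -0.06 and -0.01 in Star CSC and -4.09 and -3.93 in Star parent, a change of 3.97 ± 0.25 (15.7-fold, adjusted p = 0.000629; 2.28 with normexp). TYROBP, an adaptor of myeloid and NK cell receptors, was near background at -5.08 and -5.14 in Star CSC and within background on both Star parent arrays. It passed the test, but the measured CSC level gives no fold over the background of the parent arrays, and the fitted value turned to -0.25 with normexp. CD40 (0.62 ± 0.39) and the B cell receptor component CD79A (-0.16 ± 0.33) were not called. CD34 was called lower by 1 probe (-1.36 ± 0.14) and higher by another (1.42), so it has no settled direction.

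The other 13 leukocyte markers were not tested. CD4, the Fc receptor gamma chain FCER1G, the B cell marker MS4A1 and the common cytokine receptor chain IL2RG were well above background on none of the 4 arrays, and CD8A on 1. Of the list's 26 probes 19 were well above background on no Star array. Its summed signal, in units of each array's 75th percentile, was 1.70 and 1.77 in Star CSC and 1.27 and 1.41 in Star parent. CD86 is part of this sum, and on that linear scale its own rise exceeded the rise of the sum. The other probes of the list together were not higher in Star CSC, but most of them were background. They also include the lower CD34 probe (-1.61 and -1.58 in Star CSC, -0.27 and -0.20 in Star parent). Their sum is therefore not read as a result about leukocytes. What part leukocyte RNA has in the rises of interferon and MHC genes was not tested.

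The identity of the cells was checked against markers of mammary epithelium. Of these, 9 were on the array and 5 were tested. KRT19, a luminal keratin, was higher at 2.34 ± 0.48, from -2.91 and -2.85 in Star CSC against -5.73 and -4.70, with only 1 parent array well above background. Its call ended with normexp (0.26) and without Star CSC replicate 1, Star CSC replicate 2 or Star parent replicate 1 (2.37, 2.31 and 1.82). CDH1, the epithelial cadherin, was at -2.94 and -2.67 against -3.67 and -3.89. Its change of 0.97 ± 0.15 passed the adjusted p (0.0071) and missed the 2-fold limit, which it passed with quantile normalization (1.09), cyclic loess (1.19), median scaling (1.21), spike-in scaling (2.66) and without Star CSC replicate 1 (1.11) or Star parent replicate 1 (1.08). With normexp it was -0.11, and a second CDH1 probe (0.26) was not called. The basal keratin KRT14 (-0.35 ± 0.18) was not called, nor were ERBB2 and MUC1. The list's summed signal was 1.58 and 1.75 in Star CSC and 1.39 and 1.60 in Star parent, so the groups overlapped. The milk proteins CSN2 and LALBA and the oestrogen receptor ESR1 were well above background on no Star array.

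KRT15, a keratin of basal epithelial layers that no list held, was bright and higher, at 4.55 and 4.76 in Star CSC against 2.29 and 2.49, a change of 2.26 ± 0.13. Fibroblast markers gave 1 call among 6 (16.7%, near the 12.8% of all named genes). DPT (dermatopontin, a small matrix protein) was at 0.38 and 0.48 against -1.59 and -1.87, a change of 2.16 ± 0.16. COL1A1, COL1A2, DCN, PDGFRB and THY1 were not called, although 2 of the 6 COL1A2 probes were called lower, at -1.13 and -1.35. The fibroblast list's summed signal was 315 and 327 in Star CSC and 519 and 456 in Star parent. None of the 3 endothelial markers was called by limma (VWF, KDR and NOS3, from -0.86 to -0.76, all 3 lower at an unadjusted p below 0.05), and their summed signal was 1.44 and 1.02 against 1.93 and 2.24. Vimentin (VIM), the intermediate filament of mesenchymal cells, was at -0.41 ± 0.11 and not called.

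Transcripts of the sort markers did not rise together. CD44 stood at 1.14 and 1.18 in Star CSC and at 1.99 and 2.10 in Star parent. The gene that the sort selects as a surface protein was thus lower on both CSC arrays, by a change of -0.89 ± 0.14 (adjusted p = 0.00717), short of the 2-fold limit. It turned to 0.80 with spike-in scaling. Both CSC arrays lay below both parent arrays at 41.8% of all tested probes. No probe was named CD24 here.

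The aldehyde dehydrogenases moved in opposite directions. ALDH1A1, the retinal-oxidising enzyme most often credited with ALDH activity in stem-like cells, was at -3.32 and -3.39 in Star CSC and within background in Star parent (-4.98 and -5.85), at least 3.09-fold higher. That call rested on dim signals: the fitted change of 2.06 ± 0.42 became -0.01 with normexp, and the call ended without Star CSC replicate 1, Star CSC replicate 2 or Star parent replicate 2 (2.03, 2.09 and 1.62). ALDH3A1, which clears aldehydes in epithelia and inactivates some cytostatic drugs, was bright and lower, at 3.85 and 3.95 against 5.25 and 5.57. Its change of -1.51 ± 0.19 (adjusted p = 0.00381) had a second called probe at -1.13, and became 0.18 with spike-in scaling.

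Among stem cell genes 1 of 7 tested was called (14.3%), near the 12.8% of all named genes. PROM1 (CD133), a glycoprotein of membrane protrusions used as a stem cell marker, was at 1.95 and 2.05 in Star CSC and 0.07 and 0.83 in Star parent, a change of 1.55 ± 0.39 (adjusted p = 0.0309). The parent arrays were farther apart than the CSC arrays, and the call ended without Star CSC replicate 1, Star CSC replicate 2 or Star parent replicate 1 (1.6, 1.5 and 1.17) or either Stylo CSC array (1.55). BMI1, LIF, MYC, SOX9, TERT and THY1 were not called.

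Among drug transporters 1 of 6 tested genes was called (16.7%), and among genes of drug metabolism 1 of 11 (9.09%). These shares lie near the 12.8% of all named genes called. ABCB1, the P-glycoprotein pump that exports doxorubicin, was at 4.29 and 4.11 in Star CSC and 3.59 and 3.66 in Star parent, a change of 0.58 ± 0.11 that was not called (adjusted p = 0.0119, under 2-fold). The pump ABCC1 (-0.58 ± 0.14) and the major vault protein MVP (-0.61 ± 0.24) were not called either, and both became positive with spike-in scaling (1.11 and 1.07). ABCC4, an exporter of cyclic nucleotides and prostaglandins, was the called transporter, at -3.57 and -3.45 against -2.06 and -2.33. Its change of -1.31 ± 0.23 became -0.85 with normexp and 0.38 with spike-in scaling, and the call ended without Star parent replicate 1. FMO1, a flavin monooxygenase that oxidises drugs, was the called gene of metabolism. It was at -0.76 and -0.81 in Star CSC, did not rise clearly above background in unsorted cells and was at least 19.3-fold higher (1.63 with normexp), and its second probe was called too.

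Apart from the interferon genes already described, the largest rises among named genes well above background on all 4 arrays were of mixed function. APOA2, an apolipoprotein of high-density lipoprotein, was at 1.29 and 1.55 in Star CSC and -4.11 and -3.76 in Star parent. Its change of 5.36 ± 0.33 (41-fold, adjusted p = 0.000607) was shared by a second probe at 5.66 and was 3.27 with normexp. SLPI, a secreted inhibitor of neutrophil elastase, was at 1.53 and 1.54 against -1.63 on both parent arrays, a change of 3.17 ± 0.09 with a second probe at 3.02. SLC6A12, a betaine and GABA transporter, was at -0.02 and -0.04 against -3.49 and -3.39, a change of 3.41 ± 0.43 (1.96 with normexp). In all 3 the groups were separated by several times the gap between replicates, which their choice as the largest called rises favours. CLIC2, an intracellular chloride channel protein, was at 0.12 on both CSC arrays and -2.42 and -2.58 on the parent arrays, and its 3 tested probes were called at 2.50 to 2.76.

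The largest falls were in matrix, channel and mucosal genes. TNC (tenascin-C), a matrix glycoprotein of remodelling tissue, was at -3.15 and -3.19 in Star CSC and 0.72 and 1.03 in Star parent. The change was -4.04 ± 0.14 (16.5-fold, adjusted p = 0.0002), and a second probe gave -4.51. KCNA5, a voltage-gated potassium channel, was at 1.5 and 1.96 against 4.93 and 5.26, a change of -3.37 ± 0.33. Both genes kept their direction under every scaling tried, although the KCNA5 change was -1.68 and the TNC change -2.36 with spike-in scaling. RPE65, the retinoid isomerase of the eye, was at -0.52 and -0.70 against 2.16 and 2.31, a change of -2.85 ± 0.19 (-1.16 with spike-in scaling). ABCA4, a retinoid-related transporter of photoreceptors, fell by 2.42 ± 0.18, and TEKT1, a microtubule protein of cilia, fell by 2.04 ± 0.23. With spike-in scaling these 2 were at -0.73 and -0.35 and were not called.

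**Figure D3:**
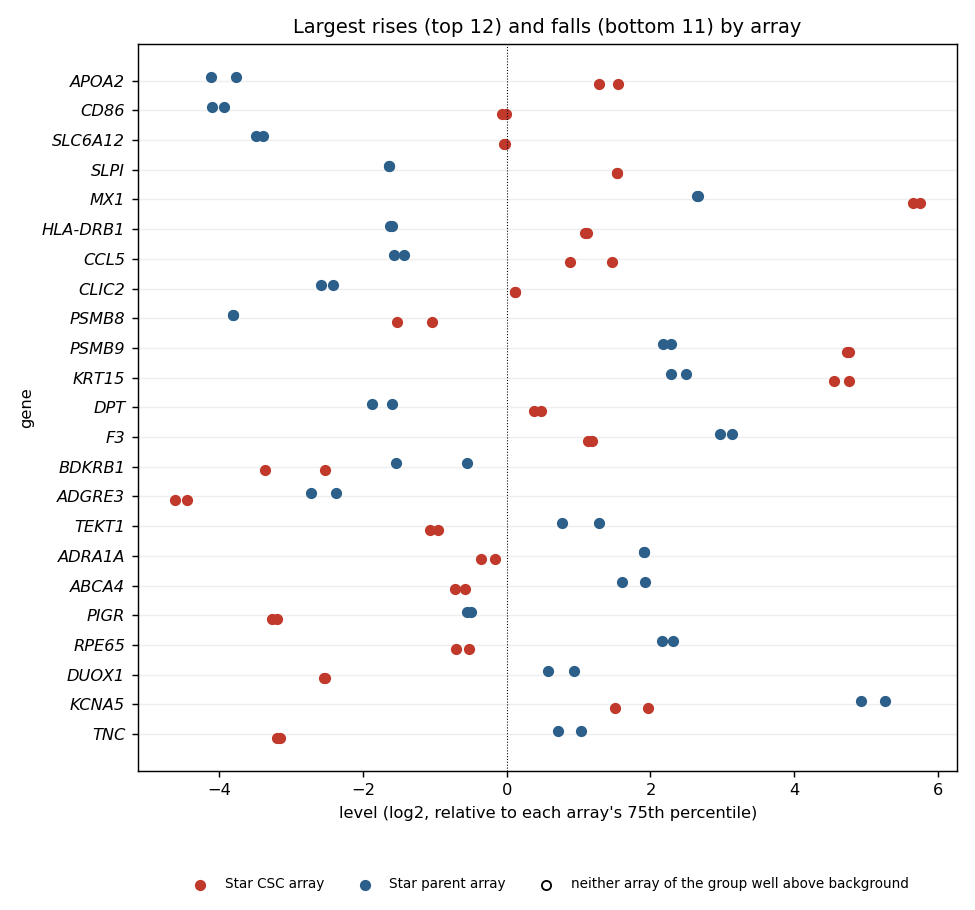
Level on each of the 2 Star CSC arrays (red) and 2 Star parent arrays (blue) of the 12 largest named rises (top) and 11 of the 12 largest named falls (bottom) among called genes well above background on all 4 arrays, on the log2 scale relative to each array's 75th percentile. The groups do not overlap for any of the genes shown, a separation the choice of genes fixes. BDKRB1 has wide gaps within both groups (-3.36 and -2.53 against -0.55 and -1.54) beside tight genes such as SLPI.

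Matrix proteins were mostly lower among their calls: of 12 tested, 5 were lower and 1 (DPT) higher, against 7.23% and 5.53% of all named genes. Their median of -0.78 became 0.91 with spike-in scaling, where 5 were higher and 1 lower. That scaling called 793 of all 940 named genes higher, with a median of 1.61, so the matrix list stayed below the named genes as a whole. The lower calls numbered 3 with quantile normalization or median scaling and 2 with cyclic loess or normexp, with 1 higher in each, and 3 without Star parent replicate 2. FBN1 (fibrillin-1, the core of microfibrils) was at 3.33 and 3.36 in Star CSC and 4.76 and 4.71 in Star parent, a change of -1.39 ± 0.09, and its other 3 tested probes were called at -1.63 to -2.54. It was 0.30 with spike-in scaling. COL2A1 and COL9A2, collagens of cartilage, fell by 1.33 ± 0.16 and 1.19 ± 0.24 from dim levels, with -0.80 and -0.72 and no call under normexp. With spike-in scaling they were at 0.36 and 0.50. COL7A1, the anchoring-fibril collagen, was well above background on 1 CSC array only, and its change of -1.86 ± 0.52 was called on arrays far apart (-5.47 and -7.20). The call ended without Star CSC replicate 2, Star parent replicate 1 or Star parent replicate 2 (-1.0, -1.89 and -1.84), without any 1 of the 4 Stylo arrays, and with quantile normalization (-1.36), median scaling (-1.63), cyclic loess (-1.51), normexp (-0.76) and spike-in scaling (-0.18). The COL9A2 call ended without Star CSC replicate 1 or Star parent replicate 2 (-1.02 and -0.97), and with quantile normalization (-0.84), median scaling (-0.96) and cyclic loess (-0.83), and the COL2A1 call with cyclic loess (-0.92).

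The list of complement and coagulation genes had 4 lower and none higher among 9 tested, against 7.23% and 5.53% of all named genes. Its median of -0.86 became 0.83 with spike-in scaling, where 4 were higher and none lower. With that scaling 793 of all 940 named genes were higher and their median was 1.61. F3 (tissue factor), the receptor that starts clotting, was at 1.13 and 1.19 in Star CSC and 3.13 and 2.97 in Star parent, a change of -1.89 ± 0.10 (3.70-fold, adjusted p = 0.000386). It was at -0.20 with spike-in scaling, without a call. TFPI, the inhibitor of tissue factor, fell by 1.12 ± 0.12, and the urokinase PLAU, a protease that activates plasminogen, fell by 1.03 ± 0.21. A second PLAU probe was at -0.16 and not called, and the PLAU call ended without Star CSC replicate 1 or Star parent replicate 1 (-0.93 and -0.81). Both lost their calls with median scaling and normexp, and were at 0.57 and 0.66 with spike-in scaling.

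Mucosal defence genes were split, with 1 higher and 2 lower among 8 tested (37.5% called, against 12.8% of all named genes). PIGR, the receptor that carries polymeric immunoglobulin across epithelia, was at -3.26 and -3.19 in Star CSC and -0.55 and -0.50 in Star parent, a change of -2.70 ± 0.12 that was -1.01 and uncalled with spike-in scaling. DUOX1, an epithelial oxidase that makes hydrogen peroxide, was at -2.53 and -2.54 against 0.58 and 0.94, a change of -3.30 ± 0.27 (9.82-fold, adjusted p = 0.00118). SLPI was the rise of this list. The other 5 tested members (CAMP, LTF, MUC1, S100A8 and WFDC2) were not called, and the list's median of -0.49 became 1.20 with spike-in scaling.

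Chemokines and cytokines went both ways, with 4 higher and 2 lower among 20 tested and a median of -0.27 that turned positive with cyclic loess, quantile normalization and spike-in scaling. Calls covered 30% of this list and 12.8% of all named genes. CCL5 (RANTES), which attracts T cells and monocytes, was at 1.47 and 0.88 in Star CSC and -1.56 and -1.43 in Star parent, a change of 2.67 ± 0.24. IL33, an alarmin of epithelial nuclei, was at -0.50 and -0.56 against -2.53 and -2.63, a change of 2.05 ± 0.22 (0.99 with normexp, not called). IL6, the acute-phase cytokine, was at -2.83 and -2.82 against -5.05 and -4.72, with 1 parent array well above background. Its change of 2.06 ± 0.22 had a second called probe at 2.98 and became 0.33, uncalled, with normexp. CCL2, which recruits monocytes, was bright and lower, at 2.28 and 2.40 against 3.27 and 3.45, a change of -1.02 ± 0.11. This value lies at the 2-fold limit: the call ended with median scaling, cyclic loess, the detected-probe percentile and normexp, and without Star CSC replicate 1 or Star parent replicate 2. CCL17, a ligand of CCR4, fell by 1.26 ± 0.17. CCL17 lost its call with normexp, and spike-in scaling put CCL2 and CCL17 at 0.67 and 0.43.

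Of 8 tested genes of the prostaglandin pathway 2 enzymes were called higher, none lower, with a median of 0.41 that became -0.12 with normexp. That is 25% of the list, against 12.8% of all named genes called. PTGDS, a prostaglandin D synthase, was at 1.82 and 1.81 in Star CSC and -0.27 and 0.11 in Star parent, a change of 1.89 ± 0.15. PTGES, the inducible prostaglandin E synthase, was at 2.58 and 2.84 against 1.58 and 1.46, a change of 1.19 ± 0.13 with a second probe at 2.02. The cyclooxygenase PTGS2, which starts prostaglandin synthesis from arachidonic acid, had the largest value of the list but was not called: it was at 0.38 and 0.42 in Star CSC and at -0.82 and -6.24 in Star parent, a change of 3.93 ± 1.58 (adjusted p = 0.111). The parent arrays were farther apart than the group means. The count of higher genes was 3 with normexp, without Star parent replicate 1 and without Star parent replicate 2.

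Growth factors had 3 lower and 1 higher among 11 tested, with a median of -0.46 that became 1.23 with spike-in scaling. Calls covered 36.4% of these genes and 12.8% of all named genes. BMP4, a bone morphogenetic protein, was at -0.18 and -1.52 in Star CSC and 0.93 and 1.06 in Star parent. Its CSC arrays were 1.34 apart by themselves, and the change of -1.84 ± 0.40 lost its call without Star parent replicate 1 (-1.91) or Star parent replicate 2 (-1.78); it ranged from -2.51 to -1.17 when a CSC array was left out, with the call held. BMP7 was lower at all 3 tested probes (-1.29 ± 0.21, -1.59 and -1.70), although the first lost its call without Star CSC replicate 1. VEGFA, the angiogenic factor, fell by 1.1 ± 0.21, with a second called probe at -1.40 and with its call ended by median scaling, normexp and the loss of Star CSC replicate 1 or Star parent replicate 2. ANGPT1, the ligand of the TIE2 receptor, rose by 1.23 ± 0.14 (0.40 and uncalled with normexp). Spike-in scaling put BMP4 at -0.15, BMP7 at 0.40 and VEGFA at 0.59.

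WNT5A, a non-canonical Wnt ligand, was at -2.18 and -2.95 in Star CSC and -0.52 and -0.92 in Star parent, a change of -1.84 ± 0.39. Its call ended without Star CSC replicate 2 or Star parent replicate 1 (-1.45 and -1.64) and with spike-in scaling (-0.15). FGFR2, a fibroblast growth factor receptor, was at -2.38 and -2.30 against -0.76 and -0.85, a change of -1.54 ± 0.09 with a second probe at -1.48. It was the only call among 7 growth factor receptors (14.3%, near the 12.8% of all named genes), and it was 0.15 with spike-in scaling. The membrane peptidase MME (CD10), a marker of myoepithelium, was at -2.56 and -2.51 against -1.05 and -1.08, a change of -1.47 ± 0.09, with a second probe at -1.91 and 0.22 under spike-in scaling.

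Of 112 G protein-coupled receptors on the array only 27 were tested, and 7 of these were lower and 2 higher, with a median of -0.42 (1.27 with spike-in scaling, where 16 were higher and none lower). Of all 940 named genes 12.8% were called, and with spike-in scaling 793 were higher. ADRA1A, an alpha-1 adrenergic receptor, was at -0.35 and -0.16 in Star CSC and 1.91 on both Star parent arrays, a change of -2.17 ± 0.22 (-0.48 and uncalled with spike-in scaling). ADORA2A, an adenosine receptor, fell by 1.39 ± 0.10 at each of 2 probes, and was at 0.30 with spike-in scaling. The adhesion receptor ADGRE3 fell by 1.99 ± 0.14 (-1.08 with normexp, -0.30 with spike-in scaling). The kinin receptor BDKRB1 fell by 1.90 ± 0.38, a call that ended with spike-in scaling (-0.21) and without Star CSC replicate 1 or Star parent replicate 1. The serotonin receptor HTR1D and the adrenergic receptor ADRA1B, neither clearly above background in sorted cells, were lower by at least 3.26-fold and at least 2.57-fold, but the HTR1D call ended under 5 other scalings and without 3 of the 4 arrays in turn, and ADRA1B was -0.75 with normexp and uncalled without Star parent replicate 1. EDNRB, the endothelin B receptor, rose from -1.60 and -1.36 in Star parent to 0.62 and 0.21, a change of 1.90 ± 0.36, and lost its call without Star CSC replicate 1 or Star parent replicate 1. ADGRL2, a latrophilin, was higher by 1.02 ± 0.15, at the 2-fold limit (0.70 with normexp, uncalled; uncalled without Star parent replicate 2).

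Adhesion receptors gave 1 higher and 2 lower calls among 11 (27.3%, against 12.8% of all named genes). NCAM1, a neural cell adhesion molecule, was at -2.86 and -2.84 in Star parent and not well above background in Star CSC, at least 5.66-fold lower (-1.0 with normexp and -0.81 with spike-in scaling, both uncalled). ITGB3, the beta-3 integrin, fell by 1.28 ± 0.22, from -1.31 and -1.75 to -2.78 and -2.83 (uncalled with normexp, 0.41 with spike-in scaling). VCAM1, a ligand of leukocyte integrins, was called higher at 1.76 ± 0.47, but the call ended with quantile normalization and normexp and without any 1 of the 4 Star arrays. The list's median of -0.19 turned positive with median and spike-in scaling.

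Several lists of housekeeping and stress genes gave no call by limma in either direction, where 12.8% of all named genes were called. At that share a list of 5 to 11 genes may hold no call, so the absence of calls there is not read as a trait of the list. These were 25 ribosomal proteins (median -0.40), 18 apoptosis regulators (0.19), 16 genes of the ER translocon (-0.24), 11 of the respiratory chain (-0.04), 8 heat shock genes (-0.30), 8 DNA repair genes (0.27) and 5 cell cycle genes (0.17). At an unadjusted p below 0.05 alone, 15 ribosomal, 8 translocon and 3 heat shock genes were lower, and 0, 1 and 0 were higher. The same count was 6 higher and 2 lower for apoptosis regulators, 3 and 2 for the respiratory chain, 2 and 1 for DNA repair and 2 and 0 for the cell cycle. The share of all named genes at that threshold is not given here. Spike-in scaling made every negative one of these medians positive, and at least 5 members of each list were called higher with it, as were 793 of all 940 named genes. The ribosomal median also turned with quantile normalization (0.01). For the respiratory chain it was no longer negative with quantile normalization, cyclic loess, median scaling or normexp. At an adjusted p below 0.05 alone, without the 2-fold limit, 30.5% of all tested probes passed. Lysosomal genes had 1 call among 20, the protease CTSD, at 0.44 and 0.27 against 1.58 and 1.46. Its change of -1.16 ± 0.24 lost its call with median scaling and without Star CSC replicate 2 or either Star parent array, and was 0.53 with spike-in scaling. Of the 14 antioxidant and iron genes HMOX1, which degrades haem, fell by 1.19 ± 0.20 and the cystine transporter SLC7A11 by 1.03 ± 0.20. Both lost their calls with median scaling and normexp, SLC7A11 also without Star CSC replicate 1 or Star parent replicate 1, and with spike-in scaling they were at 0.50 and 0.66.

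**Figure D4:**
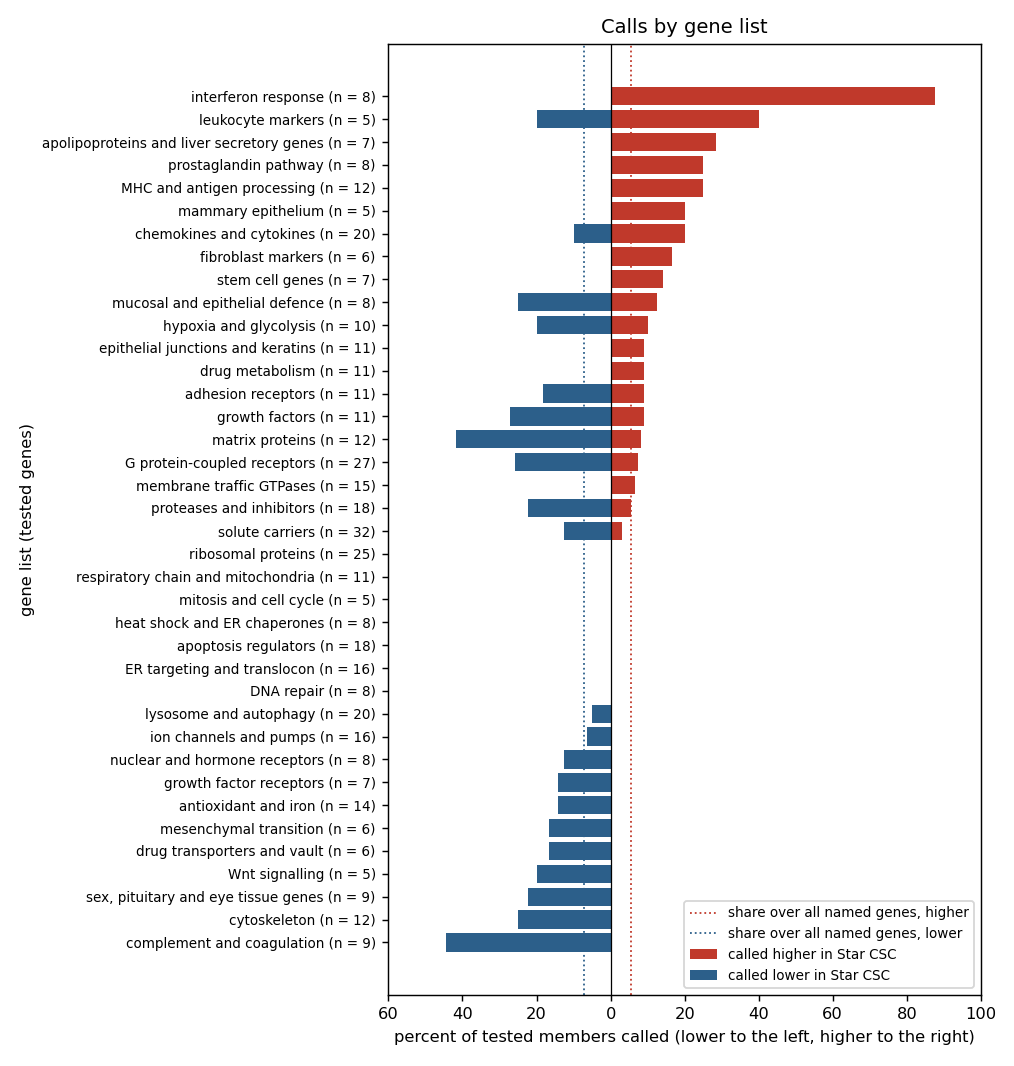
Percent of tested members called higher (red, to the right) and lower (blue, to the left) in Star CSC for each gene list with at least 5 tested genes, with dotted lines at the shares over all 940 tested named genes (5.53% higher and 7.23% lower). The interferon list has 7 of 8 higher, the coagulation list 4 of 9 lower and the matrix list 5 of 12 lower at the 75th-percentile scaling. Among interferon members well above background on all 4 arrays 5 of 6 were higher. With spike-in scaling the coagulation list has 4 of 9 higher and the matrix list 5 of 12 higher and 1 lower, against 793 of all 940 named genes higher.

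Hypoxia-regulated genes were divided as well. CA9, a surface carbonic anhydrase, was at 1.30 and 1.53 in Star CSC and 0.02 and 0.34 in Star parent, a change of 1.23 ± 0.15 with a second probe at 1.30. ADM (adrenomedullin), a vasodilator peptide, was at 3.28 and 3.25 against 4.34 and 4.35, a change of -1.08 ± 0.08. With VEGFA this gave 1 higher and 2 lower calls among 10 (30%, against 12.8% of all named genes). The median of -0.44 became 1.24 with spike-in scaling, where ADM was at 0.61. The ADM call ended with median scaling and normexp. RAB27A, a GTPase of vesicle secretion, was the only call among 15 membrane traffic GTPases, at 4.48 and 4.51 against 3.23 and 2.97, a change of 1.39 ± 0.13.

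**Figure D5:**
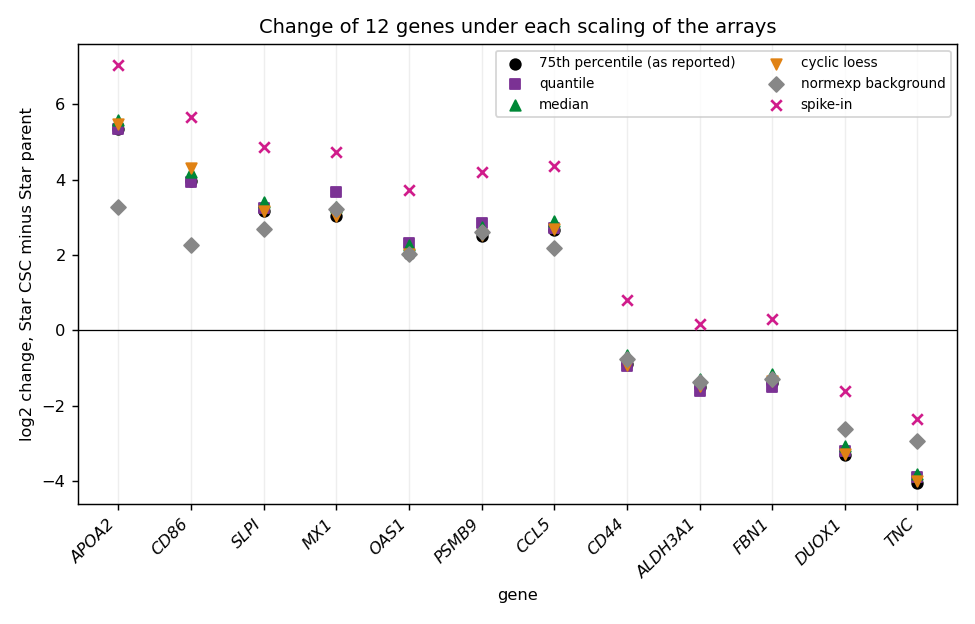
Change (log2 Star CSC minus Star parent) of 12 genes under 6 ways of scaling the arrays, 1 symbol a scaling. The 7 rises on the left stay above 0 in each, with normexp lowest for dim genes (APOA2 3.27, CD86 2.28), whereas spike-in scaling lifts every gene by 1.69 and turns CD44 (0.80), ALDH3A1 (0.18) and FBN1 (0.30) to positive values.

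The second comparison asked whether the change with sorting differed between the resistant and the sensitive line, by the difference of the contrasts in the same limma fit. That difference was called at 13530 of the 25939 probes (52.2%), 27.8% higher and 24.4% lower in the resistant line, and at 54.7% of the named genes. The contrast within the sensitive line was itself called at 53.8% of the probes. It also carries the dimness of the Stylo parent arrays, whose 75th-percentile signal was only 88.8 and 69.5, and the lines lay on separate slides. Calls of the difference were therefore read for 8 genes well above background on all 8 arrays, taken from the 5 largest rises and 5 largest falls and the called interferon genes. The other called interferon genes were within background on the Stylo parent arrays and are given beside them for direction only. SLPI went in opposite directions at the 75th-percentile scaling. It rose by 3.17 ± 0.09 with sorting in the resistant line and fell by 1.72 ± 0.09 in the sensitive line. The spike-in log2 signal minus the 75th percentile was 2.18 and 1.82 on the Stylo CSC arrays and 3.59 and 4.59 on the Stylo parent arrays. Spike-in scaling would therefore raise every sensitive-line change, and would turn the SLPI fall there into a rise. OAS1 and OAS2 rose in the resistant line by 2.03 ± 0.19 and 1.69 ± 0.12, against 0.24 ± 0.19 and -0.15 ± 0.12 in the sensitive line. MX1, which this filter leaves out because the Stylo parent arrays were within background, went the other way: it was 5.47 ± 0.09 higher with sorting in the sensitive line against 3.05 ± 0.09 in the resistant one. OAS3 (0.39 ± 0.10 against 1.48 ± 0.10) and CXCL10 (2.48 ± 0.09 against 1.78 ± 0.09) were left out for the same reason. By the test of the difference MX1 (-2.42 ± 0.13) and OAS3 (1.09 ± 0.14) were called in opposite directions and CXCL10 (-0.70 ± 0.12) was not called. OASL (5.61 ± 0.83) and IFGGC1 (6.01 ± 0.19), well above background on no Stylo array, were called higher in the resistant line. Both differences subtract sensitive-line values from background signals (-1.32 and -1.07), so their size is not measured. The interferon genes thus did not all differ in 1 direction, and OAS1 and OAS2 do not stand for MX1 or CXCL10. At the 75th-percentile scaling TNC, DUOX1, PIGR and RPE65 fell in both lines. The larger value was in the resistant one, a direction that their choice as its largest falls favours. Spike-in scaling would turn the sensitive-line falls of TNC (-1.10), PIGR (-1.67) and RPE65 (-1.75) into rises. KCNA5 fell by 3.37 ± 0.33 and 2.14 ± 0.33, a difference that was not called (limma adjusted p = 0.0563).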

How the data were processed

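Signals were extracted by Agilent Feature Extraction (version 11.5.1.1), per the submitters' processing notes. The authors' deposited scanner files give a processed signal per spot as an intensity, with flags, per the file headers. The deposited value table holds log2 values whose differences between arrays matched the log2 processed signal minus the 75th percentile (SD 4.53e-07 for Star CSC 2 minus Star CSC 1). Its Star columns had medians of -0.27 and -0.18 (CSC) and -0.05 and 0.00 (parent), since each probe was centred; how is not given in the sources used here.

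Control spots and flagged outlier spots were left out, spots of a probe averaged on the log2 scale, and the 75th percentile subtracted per array. No spot was saturated. limma 3.58.1 (R 4.3.3; lmFit and eBayes) fitted 4 group means on all 8 arrays, so that the Stylo arrays add to the spread estimate (4 residual degrees of freedom). P-values were two-sided and Benjamini-Hochberg adjusted over 25939 probes. The fit was tested on simulated data.

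Named genes were the 12 largest rises and 12 largest falls among called genes well above background on all 4 Star arrays, the 5 largest bounds each way, the most changed called members of every list (at most 3), a fixed set of sort, transporter and epithelial genes, and tested cell type markers. Results for 1 gene that this rule picks are not reported here. Some further members of lists were added after their values were seen. The comparison and the lists were chosen with earlier results of these data known. Symbols came from a RefSeq table (UU_Cfam_GSD_1.0), by accession and for names only; 2331 of the called probes have no symbol here. Same-numbered arrays had deviations correlated at 0.0642, so the numbers do not pair them. Alternatives covered scaling, background correction, filters, thresholds, variance models and leaving out each array. The number of arrays limits the precision.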

Additional observations from a re-analysis of the deposited data

Results flagged for a closer look

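Among the largest rises and falls and the called interferon genes, 8 were well above background on every array of both lines, and in 7 of them the change with sorting differed between the resistant and the sensitive line by limma's test of the difference itself. The difference (resistant minus sensitive, log2) was 4.89 ± 0.13 for SLPI, where the sensitive line went down and the resistant line up. It was 1.79 ± 0.26 for OAS1 and 1.84 ± 0.17 for OAS2, while MX1, within background in Stylo parent and so not among the 8, was at -2.42 ± 0.13. Left out likewise were OAS3 (1.09 ± 0.14), OASL (5.61 ± 0.83), IFGGC1 (6.01 ± 0.19) and CXCL10 (-0.70 ± 0.12, not called). The OASL and IFGGC1 values rest on background signals in the sensitive line, so their size is not measured. The difference was -2.95 ± 0.20 for TNC, -1.17 ± 0.38 for DUOX1, -1.03 ± 0.17 for PIGR and -1.10 ± 0.27 for RPE65, genes that were lower in sorted cells of both lines. The OAS1 and OAS2 differences lost their calls with spike-in scaling (1.39 and 1.44), as did the DUOX1, PIGR and RPE65 differences (-1.57, -1.44 and -1.50), OAS2 with normexp (0.61), and PIGR with normexp (-0.41) and quantile normalization (-0.79). The DUOX1 call ended without any of 6 arrays in turn (-0.77 without Stylo parent replicate 1), PIGR without Stylo CSC replicate 1, Star CSC replicate 1 or Stylo parent replicate 1 (-0.97, -1.0 and -0.89), and RPE65 without replicate 2 of Stylo CSC or replicate 1 of Stylo parent (-0.97 and -0.86). All 8 genes were chosen by their change in the resistant line, which favours a larger change there. The same difference was called at 52.2% of all tested probes, so being called is common here. The dim Stylo parent arrays enter each value, and their part was not tested.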

How the results depend on the processing

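Of 3572 values for named genes under other settings, 3156 kept direction and call, 305 lost the call, 53 gained one and 58 changed sign. Spike-in scaling changed the sign of ABCC1 (1.11), ABCC4 (0.38), ACTG1 (0.67), ADM (0.61), ADORA2A (0.30), ALDH3A1 (0.18), BMP7 (0.40), CCL17 (0.43), CCL2 (0.67), CD34 (0.33), CD44 (0.80), CD79A (1.53), COL1A1 (0.85), COL1A2 (1.29), COL2A1 (0.36), COL9A2 (0.50), CTSD (0.53), FBN1 (0.30), FGFR2 (0.15), GHR (0.65), HMOX1 (0.50), HTR1B (0.10), IFNA7 (0.46), ITGB3 (0.41), KDR (0.86), KRT14 (1.34), MME (0.22), MSMO1 (0.60), MVP (1.07), NOS3 (0.93), PLAU (0.66), SLC1A3 (0.54), SLC3A2 (0.60), SLC7A11 (0.66), TFPI (0.57), THY1 (1.30), VEGFA (0.59), VIM (1.28) and VWF (0.83), which its shift of 1.69 accounts for by construction. Normexp turned ALDH1A1 (-0.01), CASP4 (-0.05), CD40 (-0.35), CDH1 (-0.11), DCN (-0.48), DLA-79 (-0.10), DLA-DMB (-0.03), DLA-DRA (-0.43), PDGFRB (-0.14) and TYROBP (-0.25). Quantile normalization turned CD79A (0.19), COL1A2 (0.08) and VIM (0.14), median scaling CD79A (0.08), and cyclic loess CD79A (0.21). Leaving out 1 Star array gave -0.52 to 0.20 for CD79A (0.02 without Star CSC replicate 1) and -0.05 to 0.70 for PDGFRB, and the most changed CD34 probe gave 1.42. The counts of higher and lower probes (851 and 1673) became 1594 and 1077 with median scaling, 21284 and 157 with spike-in scaling, 367 and 758 with normexp, 3390 and 4525 with no fold limit, and 457 and 744 with limma's treat against 1.5-fold. At an adjusted p below 0.01, 1102 were lower. Of the lower probes 122 were still lower with spike-in scaling, and all 851 higher ones were still higher. The replicate block, by number, gave 842 and 1612, and 433 and 827 in a fit of the 4 Star arrays alone, which was added after seeing the data and has 1 residual degree of freedom. Leaving out 1 array gave 653 to 1153 higher and 1237 to 2050 lower. The difference between the lines was called at 7869 probes with spike-in scaling, 21865 with no filter on dim probes and 12746 to 13456 without 1 array. Causes other than these constructions were not tested. Signal over background limits the dim genes: of the tested probes 23726 were well above background on all 4 arrays, and 432 on both CSC arrays and neither parent array.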

Other observations

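Some named genes outside the lists, picked after their values were seen, also differed between sorted and unsorted resistant cells. CES1, a carboxylesterase of drug and ester hydrolysis, was at 0.59 and 0.64 in Star CSC and -1.42 and -1.46 in Star parent, a change of 2.05 ± 0.14 (limma adjusted p = 0.000734). BCHE, butyrylcholinesterase, changed by 1.84 ± 0.18, although a second probe (0.78) was not called. The inflammatory caspases CASP12 (2.03 ± 0.11) and CASP4 (1.19 ± 0.23) were higher, CASP4 from dim probes that turned to -0.05 with normexp, with a call that ended without Star CSC replicate 2 or Star parent replicate 1. IL18BP, the decoy that binds interleukin 18, was higher by 1.45 ± 0.14. IFNA7, an interferon alpha gene, was lower, at 0.02 and 0.07 against 1.13 and 1.42 (-1.22 ± 0.18; 0.46 with spike-in scaling). PDPN (podoplanin), a mucin-like surface protein, was at -1.76 ± 0.12, and NTS, the neurotensin precursor, at -1.86 ± 0.09, both uncalled with spike-in scaling (-0.07 and -0.17). CCL26 (eotaxin-3) was called at 2.32 ± 0.60 with 1 parent array well above background, and it lost the call with normexp (0.08) and without either Star CSC array.

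Among further members of the lists, the glucagon precursor GCG was at 4.32 and 4.63 in Star CSC and 2.54 and 2.62 in Star parent, a change of 1.89 ± 0.22. AZGP1, a secreted glycoprotein, did not rise clearly above background in unsorted cells and was at least 5.06-fold higher, but only 0.03 with normexp. The sodium-calcium exchanger SLC8A1 and the muscle proteins MYL2 and DES did not rise clearly above background in sorted cells, with bounds of at least 2.53-fold, 1.89-fold and 1.86-fold lower. All 3 lost their calls with normexp, and MYL2 also without any 1 of the 4 Star arrays; DES lost its call without Star CSC replicate 1 or either Star parent array. Gamma-actin ACTG1 (-1.02 ± 0.16), the amino acid transporter chain SLC3A2 (-1.09 ± 0.15), the glutamate transporter SLC1A3 (-1.15 ± 0.29), the growth hormone receptor GHR (-1.04 ± 0.14) and the sterol oxidase MSMO1 (-1.09 ± 0.21) were called close to the 2-fold limit. ACTG1 had 2 other probes, and MSMO1 4, that were not called, and each of these 5 genes lost its call with median scaling and without at least 1 Star array. HTR1B was called at -1.59 ± 0.24, with 1 CSC array well above background. Probes without a name changed most of all: the feature ENSCAFT00000013094 was at -4.21 and -4.25 in Star CSC and 2.68 and 2.76 in Star parent, a 124-fold difference, and 2 probes of DR104821 were higher, by 5.13 and 4.86.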
